A study of Mus musculus with 22 samples.

Results

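The 2 genotypes compared were D-KO and E1-KO, with 3 RNA-seq libraries each, taken from 12 RNA-seq libraries among the 22 samples of the series. E1 and E2 are a pair of enhancers studied for their action on the HoxB genes; E1-KO cells lack E1, and D-KO, which the labels do not spell out, is read here as lacking both E1 and E2. Both genotypes were made in E14, a male mouse embryonic stem cell line derived from the blastocyst, grown on gelatin with LIF and inhibitors of MEK and of GSK3. All libraries were made after withdrawal of LIF and both inhibitors and addition of 2 µM retinoic acid for 1 day. On that reading, both genotypes lack E1 and only D-KO lacks E2. Other differences between the lines cannot be told apart from the loss of E2. The number of clones behind a genotype is not given in the sources used here. The submitters count each genotype's 3 libraries as biological replicates without saying whether they were separate cultures, so p-values measure only the spread between these samples.

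Retinoic acid enters the nucleus bound to carrier proteins and switches on Hox genes through heterodimers of retinoic acid receptors and retinoid X receptors. HoxB genes at the 3′ end of the cluster respond first, and their products give cells a position along the head-to-tail axis. In stem cells released from LIF and the inhibitors, the same signal also lowers the naive pluripotency network and can open the way to primitive endoderm.

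Library sizes were alike, with 9562262 to 10342463 counted reads in E1-KO and 10137742 to 10593418 in D-KO. Levels are given as CPM, read counts set relative to the TMM-scaled library size, and differences as log2 fold changes with their standard error, positive where D-KO was higher. Of 52535 gene symbols, 15843 had enough counts to be tested, and 8027 of them (50.7%) passed an adjusted p of 0.05 (called genes): 4057 (25.6%) rose and 3970 (25.1%) fell in D-KO. A change of at least 1 on the log2 scale, a doubling or halving, was seen in 1169 called genes (7.38%), 526 upward (3.32%) and 643 downward (4.06%). The 3 libraries of one genotype lay above the 3 of the other at 8853 genes (55.9%). Counts of rises and falls in the gene lists below are to be read beside the shares of all tested genes, 25.6% and 25.1%. The spread within a genotype was small (common dispersion 0.00277), so differences of a fraction of a doubling passed the test. A fit over all 12 libraries, which shares the wider spread of the unedited WT libraries, called 2674 genes, 1414 of them higher and 1260 lower. With library totals in place of TMM scaling, 2969 genes were called higher and 5222 lower.

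Technical measures also moved with the genotype, before any gene group is considered. Reads on mitochondrially encoded genes made up 2.53 to 2.69% of counts in D-KO and 1.36 to 1.48% in E1-KO, and reads without a unique alignment 17.9 to 18.2% and 15.1 to 15.5%. Genes low in GC content rose more often: with genes cut into 5 equal classes by GC, 1246 of 3084 rose and 404 fell in the lowest class, and 452 of 3083 rose and 1165 fell in the highest. The part of these measures in the gene differences was not tested beyond a fit with GC and length trends removed, which called 7530 genes. That fit kept the sign of the median of each gene list described below, except for the retinoid receptors (-0.14 to 0.10), the LIF and STAT3 genes (-0.04 to 0.03), the imprinted genes (0.11 to -0.01) and the replication-dependent histones (0.01 to -0.02). The stem cell marker Sox2 had 267, 263 and 266 CPM in the D-KO libraries and 327, 329 and 354 CPM in E1-KO, and the fibroblast markers Col3a1, Postn, Dcn and Lum had 0 to 0.287 CPM. Over all 13 fibroblast markers the summed level was 34.5 to 40.6 CPM in D-KO and 49.7 to 57.7 CPM in E1-KO, without overlap. Of the 6 tested, 0 rose and 2 fell (median -0.37), Pdgfrb by 0.89 ± 0.11 and Mmp2 by 0.55 ± 0.21; in the 12-library fit Mmp2 lost its call (adjusted p = 0.156). The part of other cells in the results was not tested. Counts of the Y-linked genes Ddx3y and Eif2s3y were 0 in all 3 libraries of both genotypes, against totals of 1674 and 801 over the 3 WT libraries.

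**Figure D1:**
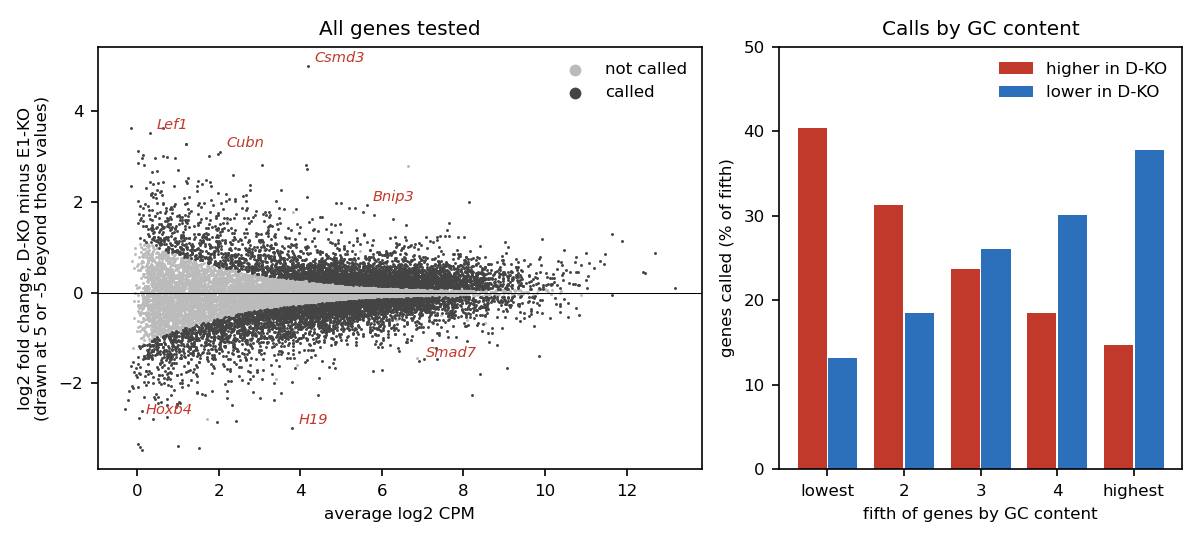
The left plot shows each of 15843 tested genes by its average log2 CPM and its log2 fold change in D-KO against E1-KO, with called genes in dark grey and 7 genes named. The right plot gives the share of each of 5 equal GC classes that was called higher or lower in D-KO: rises outnumber falls in the lowest class (1246 against 404) and falls outnumber rises in the highest (452 against 1165).

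HoxB transcripts were scarce in both genotypes, and the summed counts were lower in D-KO than in E1-KO at 8 of the 10 genes. Only Hoxb4 and Hoxb9 of the 10 HoxB genes reached the count needed for the test, and both fell. Hoxb4, an anterior-middle member of the cluster (GRCm38 chr11:96318267-96321638), had 0.101, 0.407 and 0.0984 CPM in the D-KO libraries and 1.24, 2.06 and 1.01 CPM in E1-KO. The groups did not overlap, and the difference was -2.77 ± 0.62 (adjusted p = 9.51e-05). Hoxb9, at the posterior end (chr11:96271457-96276595), had 1.52, 1.32 and 2.85 CPM in the D-KO libraries and 4.59, 5.24 and 5.47 CPM in E1-KO, again without overlap, and fell by 1.41 ± 0.28 on the log2 scale (adjusted p = 1.54e-05). In the 12-library fit, where WT counts carried all 10 genes past the filter, 4 fell and 0 rose. Hoxb4 and Hoxb9 averaged 3.90 and 3.28 CPM in E2-KO and 29.6 and 15.6 CPM in WT.

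The other 8 HoxB genes are given by raw counts summed over the 3 libraries. Hoxb5 and Hoxb6 had 0 counts in D-KO against 12 and 8 in E1-KO, where 3 counts per group, the limit that a count of 0 allows, equal 0.100 CPM in D-KO. The observed E1-KO level was 3.85-fold that floor for Hoxb5 and 2.57-fold for Hoxb6. With counting error in both genotypes, the exact 95% interval of the log2 ratio of D-KO to E1-KO ended at -1.42 for Hoxb5 and -0.72 for Hoxb6. Hoxb7 had 20 counts in E1-KO and 3 in D-KO, a log2 ratio of -2.68 with an exact 95% interval of -5.07 to -0.93, and Hoxb8 22 and 4, a ratio of -2.40 (-4.40 to -0.85). For Hoxb2 the totals were 29 and 14 (log2 ratio -0.99, -2.03 to -0.03). These intervals cover counting error only. Hoxb1, at the 3′ end, is the earliest responder to retinoic acid. It had 9 counts in E1-KO and 16 in D-KO, a log2 ratio of 0.89 with an interval of -0.38 to 2.25. Hoxb3 had 2 and 4 counts, and Hoxb13, which lies apart from the cluster on its 5′ side, 29 and 21 (log2 ratio -0.41, -1.29 to 0.45). For these 3 genes no difference was detectable at this depth. Hoxb1 reached 759 counts and Hoxb2 935 over the 3 WT libraries, so both genotypes were far below unedited cells.

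**Figure D2:**
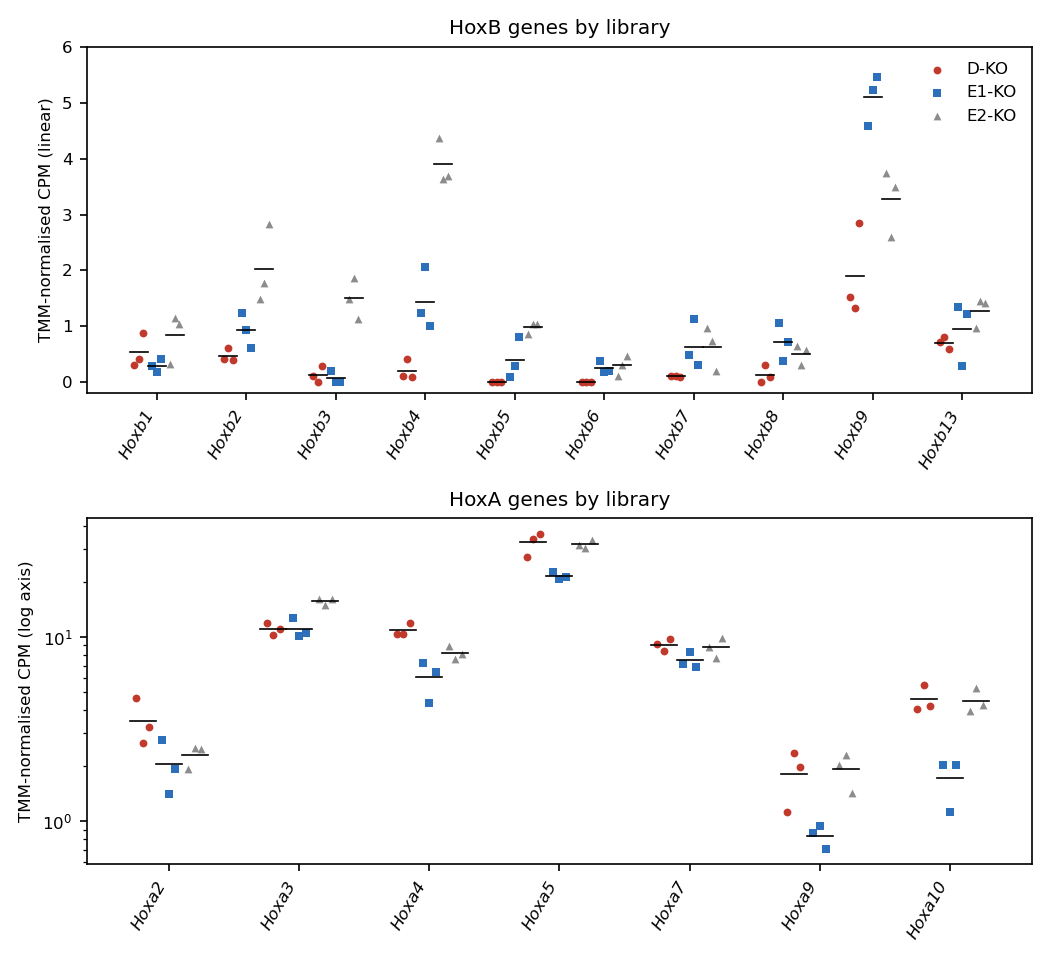
Each point is 1 library and each bar the mean of 3, for the 10 HoxB genes (upper plot, TMM-normalised CPM on a linear axis) and 7 tested HoxA protein genes (lower plot, log axis), in D-KO, E1-KO and, for reference, E2-KO. D-KO lies below E1-KO at Hoxb4 and Hoxb9, whereas at Hoxa4, Hoxa5, Hoxa9 and Hoxa10 it lies above.

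Of 6 non-coding transcripts of the cluster 2 were tested, and both fell. Gm53, between Hoxb13 and Hoxb9 (chr11:96251105-96264868), had 10.6, 10.1 and 12.9 CPM in the D-KO libraries and 30.7, 28.4 and 29.1 CPM in E1-KO, a difference of -1.39 ± 0.12. The annotated locus of the microRNA Mir196a-1, next to Hoxb9, had 2.13, 0.815 and 1.48 CPM in the D-KO libraries and 3.73, 2.71 and 3.44 CPM in E1-KO and fell by 1.15 ± 0.34; reads over the locus say nothing of the mature microRNA. For both, the groups did not overlap, and E1-KO was also above the WT mean (17.5 CPM for Gm53 and 2.07 CPM for Mir196a-1). Hoxb3os, antisense to Hoxb3, had 26 counts in E1-KO and 10 in D-KO (log2 ratio -1.32, -2.54 to -0.22). How strand was handled in counting is unknown here, and its reads cannot be told from those of Hoxb3.

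RefSeq promoters (GRCm38.p6) hold 3 HoxB entries, Hoxb1, Hoxb4 and Hoxb8, and stretches of 2 are shown, Hoxb4 as a HoxB gene that fell and Hoxb1 as one without a detectable difference. The retinoic acid receptor core site AGGTCA, on either strand, is in 16.3% of all 32851 promoters of 300 bases and, of the 3, in Hoxb4. The Hox and Pbx site TGATNNAT is in 8.85% of all promoters and, of the 3, in Hoxb1 and Hoxb8. Capitals mark the fixed letters of the match, which is a description and not a binding site, and both genes are on the plus strand.
Hoxb4 at chr11:96318162-96318215: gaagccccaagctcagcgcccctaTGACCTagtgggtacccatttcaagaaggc
Hoxb1 at chr11:96365572-96365627: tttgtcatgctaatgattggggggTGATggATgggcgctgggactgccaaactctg
The Hoxb4 stretch holds the core site as its reverse complement, starting 81 bases before the annotated start, and the Hoxb1 stretch holds the Hox and Pbx letters on the gene's own strand, 162 bases before it.

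Among 31 genes flanking the cluster, 27 were tested, 5 rose and 12 fell (median -0.18, against -0.01 over all genes tested). B4galnt2, a glycosyltransferase gene about 0.3 Mb away, fell from 7.02 ± 1.29 to 2.11 ± 0.136 CPM (SD, n = 3; -1.73 ± 0.24). Nfe2l1, a regulator of proteasome genes, had 246, 237 and 256 CPM in the D-KO libraries and 367, 365 and 363 CPM in E1-KO and fell by 0.57 ± 0.037 with no overlap. Scrn2 fell by 0.96 ± 0.17. Kpnb1, the nuclear import factor importin beta, rose by 0.27 ± 0.027. Within 0.5 Mb of HoxB, 1 of 19 tested genes rose and 10 fell, Gm53 among the latter (median -0.23). From 0.5 to 1 Mb, 11 of 29 rose and 7 fell (median -0.02). From 1 to 2 Mb, 2 of 46 rose and 16 fell (median -0.13), and from 2 to 5 Mb 13 of 80 rose and 24 fell (median -0.11). Over the rest of chromosome 11, beyond 5 Mb, 251 of 1081 rose and 279 fell (median -0.04). With all 12 libraries fitted, 0 flanking genes rose and 5 fell, and Kpnb1 lost its call (adjusted p = 0.135).

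The HoxA genes that changed were higher in D-KO: of 13 listed transcripts 9 were tested, 5 rose and 0 fell (median 0.60). Hoxa10, a posterior member, had 4.05, 5.50 and 4.23 CPM in the D-KO libraries and 2.01, 1.12 and 2.02 CPM in E1-KO and rose by 1.42 ± 0.29 (adjusted p = 3.10e-05). Hoxa5, a middle member, had 27.3, 34.2 and 36.3 CPM in the D-KO libraries and 22.6, 20.8 and 21.3 CPM in E1-KO and rose by 0.60 ± 0.099. In both, every D-KO library lay above every E1-KO library. Hoxa4 rose by 0.85 ± 0.18 and Hoxa9 by 1.10 ± 0.43, the latter on 54 counts in D-KO and 26 in E1-KO. Hoxa2 rose by 0.79 ± 0.31, with overlapping libraries. Hoxa3 was level (-0.00 ± 0.15, its sign changing between settings), Hoxa7 higher without passing (0.28 ± 0.17) and Hotairm1, a non-coding RNA of the cluster, lower without passing (-0.21 ± 0.10). Hoxa6, Hoxa11 and Hoxa13 had 24, 17 and 13 counts in D-KO and 22, 11 and 6 in E1-KO, and the distal non-coding RNA Hottip had 1 and 0. Fitted over all 12 libraries, Hoxa2 and Hoxa9 lost their calls (adjusted p = 0.127 and 0.0509). With 1 library left out in turn, adjusted p ran from 0.0117 to 0.215 for Hoxa2 and from 0.0114 to 0.147 for Hoxa9, so both calls depend on which libraries are kept. Of 18 HoxC and HoxD genes only 3 were tested, and Hoxc4, with 48 counts in E1-KO and 11 in D-KO, and Hoxc13 fell by 2.03 ± 0.54 and 0.84 ± 0.34. Hoxd13 did not pass (-0.44 ± 0.39). The call of Hoxc13 was lost in the 12-library fit (adjusted p = 0.266) and with any of 5 libraries left out (range 0.02 to 0.137).

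Of the 9 TALE genes, whose products bind DNA together with Hox proteins, 3 rose (33.3%) and 0 fell. Over all tested genes 25.6% rose and 25.1% fell. Pbx3 had 7.09, 5.80 and 7.78 CPM in the D-KO libraries and 3.73, 3.18 and 4.56 CPM in E1-KO and rose by 0.85 ± 0.21, every D-KO library lying above E1-KO, and Meis1 rose by 0.59 ± 0.19; in the 12-library fit Meis1 lost its call (adjusted p = 0.0871).

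Components of the retinoic acid pathway itself also differed. Of 13 tested genes for retinoid uptake, binding and metabolism, 7 rose and 3 fell (median 0.37). Stra6, through which cells take up retinol, had 14.9, 18.4 and 18.6 CPM in the D-KO libraries and 9.37, 8.41 and 7.80 CPM in E1-KO and rose by 1.02 ± 0.14. No library of one genotype reached the other. Crabp2, which hands retinoic acid to its receptors, rose by 2.48 ± 0.32, whereas its relative Crabp1 fell by 1.25 ± 0.26. The enzymes that degrade retinoic acid, Cyp26a1 and Cyp26b1, are themselves induced by it: Cyp26a1 had 96.2, 97.4 and 100.4 CPM in the D-KO libraries and 53.999, 49.7 and 57.2 CPM in E1-KO and rose by 0.87 ± 0.061, and Cyp26b1 rose by 1.32 ± 0.17. Among the retinoic acid synthesising enzymes only Aldh1a3 was tested, and it fell by 1.74 ± 0.52 on a mean of 0.435 CPM in D-KO. When WT and E2-KO libraries joined the fit, 6 of 14 genes rose and 1 fell, and Crabp1 lost its call (adjusted p = 0.196).

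Receptors and their partners split evenly, 5 rising and 5 falling among 11 tested. The retinoic acid receptor genes Rara and Rarb rose by 0.41 ± 0.068 and 0.63 ± 0.13. Rarg rose by 0.09 ± 0.036, and its difference was -0.01 when library totals replaced TMM scaling. The retinoid X receptor genes Rxra and Rxrb fell, by 0.40 ± 0.078 and 0.37 ± 0.076. Nrip1, a corepressor gene induced by retinoic acid and also counted with the regulators below, had 86.6, 82.6 and 87.6 CPM in the D-KO libraries and 52.9, 54.5 and 51.2 CPM in E1-KO and rose by 0.69 ± 0.062 with no overlap. The corepressor gene Ncor1 fell by 0.28 ± 0.032 and the coactivator gene Ncoa2 by 0.54 ± 0.064. In the 12-library fit 2 of these genes rose and 2 fell, and Rara, Rarg, Rxrb and Ncor1 lost their calls (adjusted p = 0.224, 0.676, 0.277 and 0.192).

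Of 16 other regulators that retinoic acid induces, 9 rose and 4 fell (median 0.58). Stra8, the gatekeeper of meiosis, had 324, 335 and 352 CPM in the D-KO libraries and 198, 189.7 and 202 CPM in E1-KO and rose by 0.78 ± 0.039. Gbx2, a homeobox gene also counted with the naive genes, had 46.3, 43.99 and 46.6 CPM in the D-KO libraries and 16.3, 19.7 and 17.6 CPM in E1-KO and rose by 1.35 ± 0.091. The groups stood clear of each other in both. Zfp703 rose by 0.84 ± 0.099. Tgm2, a transglutaminase, went the other way, with 7.90, 9.47 and 8.17 CPM in the D-KO libraries and 18.1, 19.8 and 19.7 CPM in E1-KO and a fall of 1.17 ± 0.14. For Stra6 and Zfp703 the E2-KO means were 17.4 and 28.8 CPM, against D-KO means of 17.3 and 31.7 CPM, and for Tgm2 14.8 CPM, between D-KO and E1-KO.

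Naive pluripotency genes were lower in D-KO. Of 18 tested, 12 fell and 2 rose (median -0.37). Tfcp2l1, a core factor of the naive network, had 288, 299.6 and 286 CPM in the D-KO libraries and 527, 558 and 539 CPM in E1-KO and fell by 0.89 ± 0.035 (adjusted p = 3.74e-34). Esrrb, another, had 518, 517 and 543 CPM in the D-KO libraries and 820.1, 796 and 824 CPM in E1-KO and fell by 0.63 ± 0.031. Nanog had 684, 708 and 678 CPM in the D-KO libraries and 898, 933 and 927 CPM in E1-KO and fell by 0.41 ± 0.03. In each of the 3 genes all D-KO libraries lay below all E1-KO libraries. Klf5 fell by 0.60 ± 0.045, Klf4 by 0.44 ± 0.045 and Zfp42, known as Rex1, by 0.42 ± 0.031, while Klf2 (0.09 ± 0.049) and Fgf4 (-0.01 ± 0.045) did not pass. The risers were Gbx2 and Tcl1 (0.21 ± 0.092). With all 12 libraries fitted, 10 of 18 fell and 1 rose, and Tcl1 lost its call (adjusted p = 0.279).

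General pluripotency genes were mixed, with 7 rising and 4 falling among 14. Pou5f1, which encodes Oct4, fell by 0.29 ± 0.028 and Sox2 by 0.34 ± 0.037. Tdgf1, the Nodal co-receptor Cripto, had 445, 452 and 456 CPM in the D-KO libraries and 221, 221 and 226 CPM in E1-KO, no overlap, and rose by 1.02 ± 0.036 (adjusted p = 1.00e-36). L1td1, an RNA-binding protein gene, rose by 0.79 ± 0.031, Dppa2 by 0.64 ± 0.036 and Lin28a by 0.59 ± 0.04. Fitted over all 12 libraries, 4 of the 14 rose and 1 fell, and Pou5f1 and Sox2 lost their calls (adjusted p = 0.427 and 0.247).

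Genes of the formative and primed epiblast, the states that follow the naive one, mostly rose: 11 up and 3 down of 14 (median 0.65). Sox3 had 10.8, 11.2 and 10.1 CPM in the D-KO libraries and 3.44, 2.90 and 3.85 CPM in E1-KO and rose by 1.66 ± 0.19. Dnmt3l, the cofactor of the de novo DNA methyltransferases, had 594, 614 and 630.4 CPM in the D-KO libraries and 382, 356 and 371 CPM in E1-KO and rose by 0.73 ± 0.034. Both genes separated the genotypes without overlap. Dnmt3a and Dnmt3b rose by 0.66 ± 0.04 and 0.56 ± 0.039, Pou3f1 (Oct6) by 0.95 ± 0.17 and Otx2 by 1.03 ± 0.33. The demethylating enzymes Tet2 and Tet3 fell by 0.72 ± 0.036 and 0.72 ± 0.11. The 3 epiblast genes that fell were Foxd3, from 86.6 to 39.8 CPM (-1.12 ± 0.071), and the ERK-responsive Etv4 and Etv5. When WT and E2-KO libraries joined the fit, 9 of 15 rose and 2 fell, and Otx2 and Etv4 lost their calls (adjusted p = 0.0782 and 0.101). Lef1, a Wnt effector in this list, had the largest log2 change of it, 3.52 ± 0.60, at a low level (1.22, 2.65 and 2.07 CPM in the D-KO libraries and 0.191, 0.187 and 0.101 CPM in E1-KO).

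**Figure D3:**
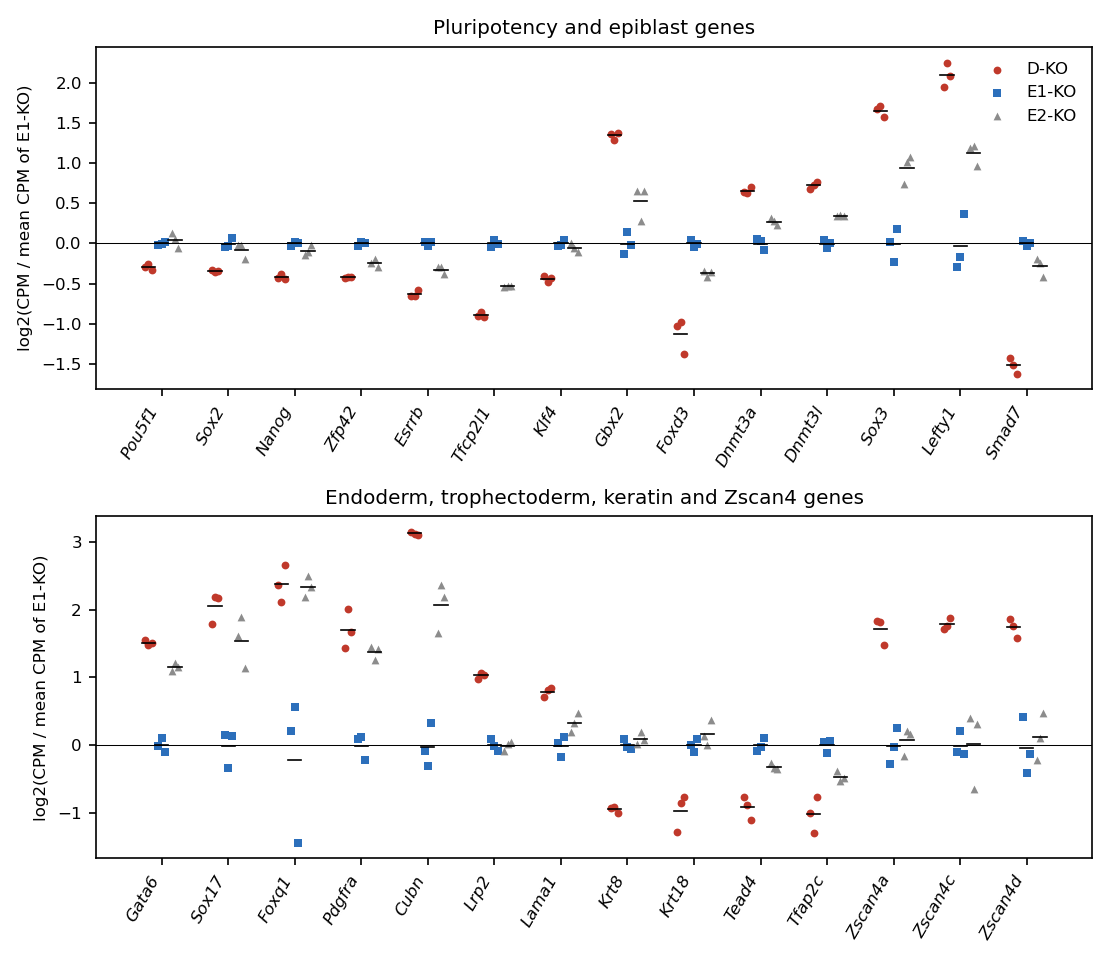
Each point is the CPM of 1 library divided by the mean CPM of the 3 E1-KO libraries, on a log2 scale, and each bar is the mean of the 3 log2 values. Naive genes such as Tfcp2l1 and Esrrb lie below 0 in D-KO and Sox3 and Lefty1 above; in the lower plot endoderm and Zscan4 genes lie above 0 and keratins, Tead4 and Tfap2c below, with E2-KO shown for reference.

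Primitive endoderm regulators rose together: of 8 tested, 7 rose and 0 fell (median 1.41). Gata6, which starts the endoderm program, had 47.9, 45.3 and 46.3 CPM in the D-KO libraries and 16.2, 17.6 and 15.2 CPM in E1-KO and rose by 1.51 ± 0.091 (adjusted p = 1.35e-23). Sox17, which acts downstream, had 4.46, 5.91 and 5.81 CPM in the D-KO libraries and 1.43, 1.03 and 1.42 CPM in E1-KO and rose by 2.05 ± 0.29. Pdgfra, the receptor that marks primitive endoderm, had 11.1, 16.6 and 13.2 CPM in the D-KO libraries and 4.40, 4.49 and 3.54 CPM in E1-KO and rose by 1.71 ± 0.18. None of these genes overlapped between the genotypes. Foxq1 rose by 2.36 ± 0.36, Sox7 by 0.84 ± 0.24 and Gata4 by 0.59 ± 0.23, and Hnf4a did not pass (0.50 ± 0.23). Summed over the listed genes, the level was 90.5 to 93.1 CPM in D-KO and 31.3 to 38.6 CPM in E1-KO. In bulk RNA, more cells of a type and more RNA per cell cannot be told apart. In the 12-library fit 7 of 9 rose and 0 fell, and Gata4 lost its call (adjusted p = 0.0968); its adjusted p ran from 0.0156 to 0.183 with 1 library left out.

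Downstream products of endoderm were uneven. Of 11 basement membrane genes, 4 rose and 2 fell: Lama1 rose by 0.79 ± 0.071 and P4ha1 by 1.15 ± 0.076, and Nid1 and Hspg2 fell by 0.50 ± 0.036 and 0.46 ± 0.029. With all 12 libraries fitted, Hspg2 lost its call (adjusted p = 0.175). Among visceral endoderm genes 3 of 10 rose (30%) and 0 fell, against 25.6% and 25.1% of all tested genes. Cubn, the endocytic receptor cubilin, had 7.19, 7.03 and 6.99 CPM in the D-KO libraries and 0.765, 0.654 and 1.01 CPM in E1-KO and rose by 3.11 ± 0.30. Apob, the core protein of secreted lipoproteins, was above in every D-KO library without passing (0.84 ± 0.37). The partner of cubilin, Lrp2 or megalin, had 122, 129 and 127 CPM in the D-KO libraries and 65.9, 60.9 and 58.3 CPM in E1-KO and rose by 1.03 ± 0.057, and the adaptor Dab2 rose by 1.13 ± 0.26. All 3 separated the genotypes. The secreted carriers Ttr, Afp and Apoa1, which mark mature visceral endoderm, had 0 to 0.197 CPM in every library of both genotypes.

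Of 14 trophectoderm and keratin genes, 8 fell and 0 rose (median -0.54). Krt8 had 39.8, 40.1 and 37.9 CPM in the D-KO libraries and 80.5, 74.05 and 72.6 CPM in E1-KO and fell by 0.95 ± 0.067, and its partner Krt18 fell by 0.95 ± 0.12. Tead4, an early trophectoderm regulator, had 29.8, 27.6 and 23.6 CPM in the D-KO libraries and 47.9, 50.02 and 54.7 CPM in E1-KO and fell by 0.91 ± 0.083. The groups did not overlap in either. Tfap2c fell by 1.00 ± 0.13. The lineage-defining Cdx2, Gata3 and Hand1 did not pass (0.21 ± 0.50, -0.28 ± 0.23 and 0.20 ± 0.34), and Elf5 had at most 0.911 CPM. Fitted over all 12 libraries, 5 of the 14 fell.

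Transcripts of the 2-cell-like state, a rare state of stem cell cultures marked by Zscan4, rose at 12 of 13 tested genes and fell at 0 (median 1.72). Zscan4c had 12.8, 13.1 and 14.3 CPM in the D-KO libraries and 3.63, 4.49 and 3.54 CPM in E1-KO and rose by 1.78 ± 0.18. Zscan4d had 14.1, 13.1 and 11.6 CPM in the D-KO libraries and 5.16, 2.90 and 3.54 CPM in E1-KO and rose by 1.74 ± 0.19. In both, the lowest D-KO library lay above the highest E1-KO library, and the WT means were higher still, at 52.1 and 66.2 CPM. Usp17lc rose by 1.92 ± 0.34 and Eif1a by 0.34 ± 0.039, and in the 12-library fit Eif1a lost its call (adjusted p = 0.118). Because the 6 Zscan4 copies differ little in sequence, reads may be split or shared among them, and they are not 6 independent observations. Early neural and streak genes were mostly too low to test. Of 17 early neural genes 6 were tested, 3 rose and 1 fell (median 0.61): Sox1 rose by 0.84 ± 0.21, the Notch ligand gene Dll1 by 0.96 ± 0.23 and Tubb3, a neuronal tubulin, by 0.77 ± 0.076, whereas Nkx6-2, a homeobox gene, fell by 0.54 ± 0.24 (adjusted p = 0.0484). Of 6 tested streak and mesoderm genes 1 rose, Cyp26a1, and 1 fell: Eomes, a gene of streak and trophoblast, fell by 0.47 ± 0.11. The mesoderm gene T did not pass (0.52 ± 0.40). When WT and E2-KO libraries joined the fit, Sox1, Nkx6-2 and Eomes lost their calls (adjusted p = 0.114, 0.188 and 0.0833).

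Signalling genes showed both directions. In the Nodal pathway 6 of 9 rose and 2 fell (median 0.43). Nodal itself, the ligand, had 114, 113 and 102 CPM in the D-KO libraries and 84.96, 73.02 and 78.9 CPM in E1-KO and rose by 0.47 ± 0.058. Lefty1, a secreted Nodal antagonist and target, had 26.4, 32.6 and 28.9 CPM in the D-KO libraries and 5.54, 6.08 and 8.81 CPM in E1-KO and rose by 2.11 ± 0.14. Smad7, an intracellular inhibitor of the pathway, had 66.8, 62.4 and 58.1 CPM in the D-KO libraries and 183, 175 and 179 CPM in E1-KO and fell by 1.52 ± 0.053 (adjusted p = 9.24e-37). None of the 3 overlapped between genotypes. Acvr1b, a type I receptor, fell by 0.99 ± 0.062.

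Among FGF and ERK response genes 9 of 18 rose and 4 fell. The receptor Fgfr2 rose by 1.47 ± 0.18 from 4.89 CPM, Myc by 0.78 ± 0.057, and the feedback inhibitors Spry2, Spry4 and Dusp6 by 0.52 ± 0.06, 0.31 ± 0.048 and 0.32 ± 0.042. Of 12 Wnt response genes, 4 rose and 1 fell. Notum, a secreted Wnt deacylase, had 38.9, 44.4 and 43.7 CPM in the D-KO libraries and 13.4, 16.5 and 15.4 CPM in E1-KO and rose by 1.49 ± 0.097 with no overlap, and Ccnd1 rose by 0.80 ± 0.071, while Axin2, a general Wnt target, rose by 0.43 ± 0.12. BMP pathway genes were divided, 2 up and 2 down of 12, with the ligand Bmp7 and the transducer Smad1 falling by 1.00 ± 0.18 and 0.80 ± 0.11, and Bmp4 and the target Id2 rising by 0.49 ± 0.083 and 0.73 ± 0.15. The mesenchymal filament gene Vim had 247, 245 and 238 CPM in the D-KO libraries and 104, 102 and 100.4 CPM in E1-KO and rose by 1.25 ± 0.045; the epithelial Cdh1 rose as well (0.22 ± 0.034). Of 9 tested genes of the LIF and STAT3 pathway, 2 rose and 3 fell: the feedback inhibitor Socs3 had 18.6, 18.1 and 18.2 CPM in the D-KO libraries and 11.7, 11.4 and 11.04 CPM in E1-KO and rose by 0.69 ± 0.13, and Stat3 fell by 0.25 ± 0.08. In the 12-library fit 4 FGF and ERK genes rose and 2 fell, and Spry4, Dusp6, Axin2, Bmp4, Id2, Cdh1 and Stat3 lost their calls (adjusted p = 0.129, 0.0691, 0.0662, 0.282, 0.0522, 0.121 and 0.1).

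The integrated stress response fell as a whole: all 15 listed genes were tested, 15 fell and 0 rose (median -0.75). This response couples amino acid shortage and other stresses, through phosphorylated eIF2, to translation of the transcription factor ATF4 and to its targets. Atf4 transcripts had 282, 286 and 274 CPM in the D-KO libraries and 396, 390.3 and 398 CPM in E1-KO and fell by 0.49 ± 0.035. Trib3, a pseudokinase and ATF4 target, had 34.6, 40.5 and 36.4 CPM in the D-KO libraries and 75.9, 77.3 and 79.7 CPM in E1-KO and fell by 1.06 ± 0.068 (adjusted p = 2.41e-22). Cebpb had 13.8, 14.7 and 13.7 CPM in the D-KO libraries and 29.4, 32.5 and 26.02 CPM in E1-KO and fell by 1.06 ± 0.11. Every D-KO library lay below every E1-KO library in each of the 15 genes. Chac1, which degrades glutathione, fell by 0.86 ± 0.11, Ddit3, which encodes CHOP, by 0.75 ± 0.094 and Ddit4 by 0.78 ± 0.068. E2-KO means were above those of both D-KO and E1-KO at 14 of the 15 genes, 99.01 CPM for Trib3 and 44.5 CPM for Chac1. With all 12 libraries fitted, 4 of the 15 were called. Of those named here, Atf3, Atf4, Atf5, Cebpb, Ddit4, Nupr1 and Sesn2 lost their calls (adjusted p = 0.0667, 0.196, 0.0591, 0.0775, 0.16, 0.494 and 0.11).

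Genes of amino acid uptake and of serine and proline synthesis, many of them ATF4 targets, moved with it: 17 of 18 fell and 1 rose (median -0.51). Cth, the last step of cysteine synthesis from methionine, had 98.5, 99.6 and 89.4 CPM in the D-KO libraries and 222, 234 and 215 CPM in E1-KO and fell by 1.22 ± 0.048. Asns, asparagine synthetase, had 373, 356 and 361 CPM in the D-KO libraries and 623, 619.5 and 627 CPM in E1-KO and fell by 0.78 ± 0.033. The glycine transporter gene Slc6a9 had 11.04, 12.01 and 10.3 CPM in the D-KO libraries and 26.95, 26.6 and 27.1 CPM in E1-KO and fell by 1.27 ± 0.12. The genotypes were separate in all 3. Aldh18a1 and Pycr1, of proline synthesis, fell by 0.73 ± 0.052 and 0.67 ± 0.095, Slc7a5, the leucine transporter LAT1, by 0.53 ± 0.038, and Psat1 and Phgdh, of serine synthesis, by 0.49 ± 0.035 and 0.34 ± 0.041. Slc38a2, a neutral amino acid transporter, was the member that rose (0.25 ± 0.035). Fitted over all 12 libraries, 10 of 18 fell and 0 rose, and Phgdh, Slc7a11 and Slc38a2 lost their calls (adjusted p = 0.109, 0.224 and 0.124).

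ER chaperone genes, the output of another stress branch, went up. Of 17 tested, 14 rose and 0 fell (median 0.42). Hspa5, which encodes BiP, the main chaperone of the ER lumen, had 783, 808 and 812 CPM in the D-KO libraries and 502, 509 and 493 CPM in E1-KO and rose by 0.68 ± 0.031 (adjusted p = 6.55e-30). Hsp90b1 had 679, 735 and 785 CPM in the D-KO libraries and 357, 370.2 and 359.9 CPM in E1-KO and rose by 1.02 ± 0.038. Calr, calreticulin, had 949.5, 949.5 and 987 CPM in the D-KO libraries and 599, 637 and 622 CPM in E1-KO and rose by 0.64 ± 0.03. No library of one genotype reached the other in these genes. Pdia3, a disulfide isomerase gene, rose by 0.62 ± 0.034, Manf by 0.77 ± 0.058 and Xbp1 by 0.42 ± 0.056, and Sdf2l1, Hyou1 and Sel1l did not pass (-0.09 ± 0.10, -0.06 ± 0.041 and -0.07 ± 0.059). When WT and E2-KO libraries joined the fit, 11 of 17 rose, and Canx, Dnajc3 and Herpud1 lost their calls (adjusted p = 0.0812, 0.237 and 0.212).

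Promoter sequences are shown for both stress lists to set elements known for these responses beside the values of their members. Motifs beyond the Hox ones were chosen after the lists' values were seen, in lists whose members mostly moved one way, so the direction of the members with a motif adds nothing to that of the lists. The C/EBP and ATF composite site TGATGNAA, to which ATF4 binds with C/EBP partners, was searched on both strands; no stretch can match both it and TGATNNAT from the same base, since their last letters differ. It is in 3.97% of all promoters, in 5 of 18 promoters of the integrated stress response list (Atf3, Chac1, Nupr1, Trib3 and Vldlr) and in 4 of 18 of the amino acid list (Asns, Pycr1, Slc1a4 and Slc7a11). All 9 of these genes fell; Herpud1, of the ER chaperone list, also carries the letters and rose by 0.24 ± 0.10. In the stretches below capitals mark its fixed letters, and each is written on the strand of its gene.
Atf3, minus strand, chr1:191183412-191183467: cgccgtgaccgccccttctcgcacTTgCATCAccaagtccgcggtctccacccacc
Chac1, plus strand, chr2:119351025-119351080: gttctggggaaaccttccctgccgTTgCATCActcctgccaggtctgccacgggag
Nupr1, minus strand, chr7:126625549-126625604: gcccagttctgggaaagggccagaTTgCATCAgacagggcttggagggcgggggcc
Vldlr, plus strand, chr19:27216796-27216851: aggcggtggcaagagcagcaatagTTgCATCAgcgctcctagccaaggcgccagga
Asns, minus strand, chr6:7693210-7693256: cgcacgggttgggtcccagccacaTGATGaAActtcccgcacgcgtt
Pycr1, minus strand, chr11:120643820-120643875: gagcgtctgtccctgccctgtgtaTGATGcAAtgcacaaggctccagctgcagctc
In Asns and Pycr1 the site reads forward, and in the other 4 as its reverse complement. The 294 tested genes with these letters in a promoter include the list members named above. Their median difference was -0.05, and 28.6% of them fell, against 25.5% of 10438 tested genes without the letters.

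The ER stress response element, a CCAAT box and a CCACG box with 9 free bases between them, bound by NF-Y and ATF6 and searched on both strands, is in 0.119% of all promoters and in 7 of 15 promoters of the ER chaperone list (Calr, Canx, Creld2, Dnajc3, Hsp90b1, Hspa5 and Pdia6). All 7 genes rose. The element is printed with its fixed letters in capitals and the 9 free bases in lower case.
Hspa5, plus strand, chr2:34772001-34772067: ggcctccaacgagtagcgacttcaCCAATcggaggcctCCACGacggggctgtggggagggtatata
Hsp90b1, minus strand, chr10:86705614-86705680: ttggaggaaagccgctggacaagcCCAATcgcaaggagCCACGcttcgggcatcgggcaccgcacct
Calr, minus strand, chr8:84847051-84847117: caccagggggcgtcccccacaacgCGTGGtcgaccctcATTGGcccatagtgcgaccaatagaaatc
Canx, minus strand, chr11:50325776-50325842: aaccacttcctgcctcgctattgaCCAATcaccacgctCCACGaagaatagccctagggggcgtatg
Pdia6, plus strand, chr12:17266467-17266533: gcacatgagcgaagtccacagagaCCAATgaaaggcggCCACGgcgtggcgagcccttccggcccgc
Creld2, plus strand, chr15:88819496-88819562: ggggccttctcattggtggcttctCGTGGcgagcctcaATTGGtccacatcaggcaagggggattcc
In these stretches Calr and Creld2 carry it as the reverse complement and the other 4 in the forward direction; Hsp90b1 has another copy nearer its start, in reverse. The 22 tested genes with the element include these 7 of the list, so their count is not separate from it. Of the 22, 10 rose and 5 fell (median 0.13), against 2837 and 2739 of 10710 without it.

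**Figure D4:**
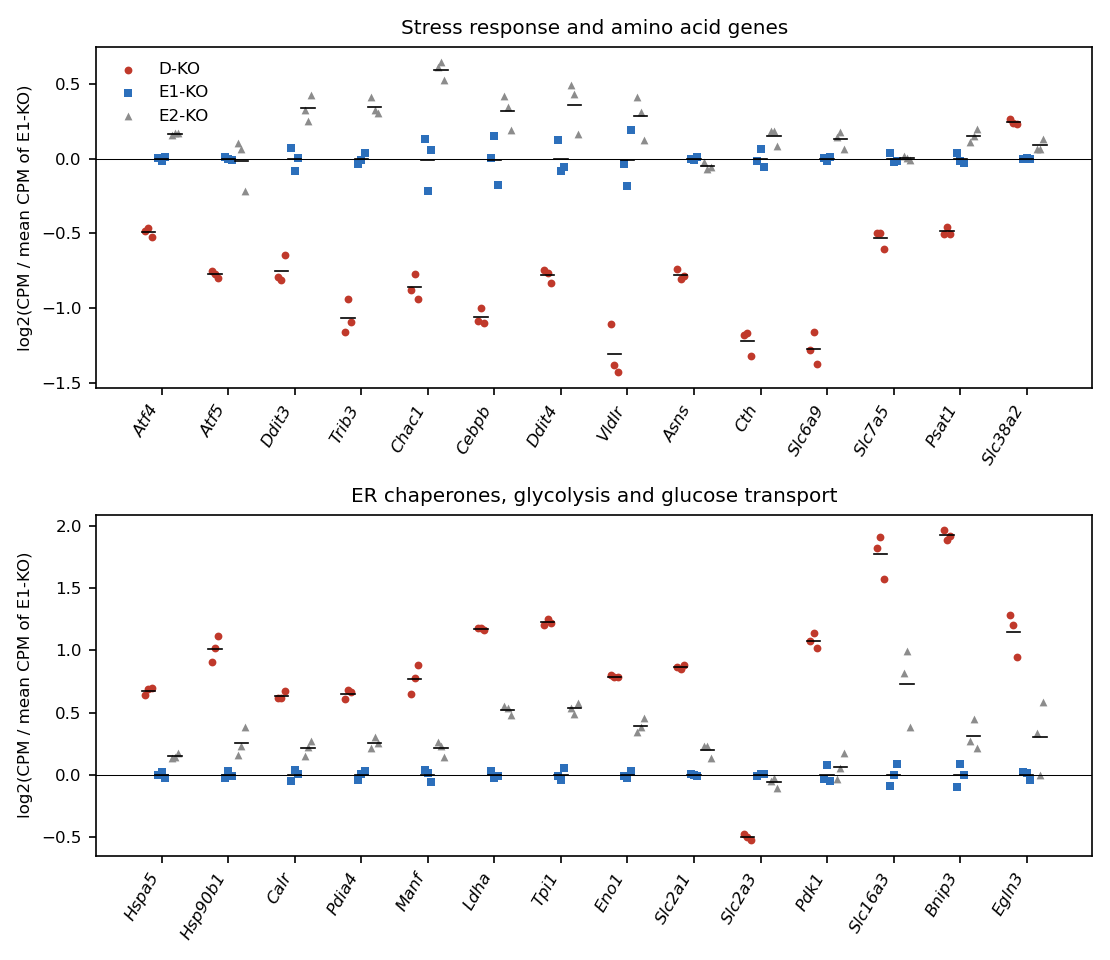
Each point is the CPM of 1 library divided by the mean CPM of the 3 E1-KO libraries, on a log2 scale, and each bar is the mean of the 3 log2 values. In the upper plot 13 of the 14 stress and amino acid genes lie below 0 in D-KO and Slc38a2 above; in the lower plot 13 of the 14 chaperone and glucose genes lie above 0 in D-KO and Slc2a3 below.

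Of 21 genes of glycolysis and glucose transport, 16 rose and 2 fell (median 0.62). Ldha, which turns pyruvate into lactate, had 1343, 1345 and 1333 CPM in the D-KO libraries and 609, 585 and 589.6 CPM in E1-KO and rose by 1.17 ± 0.029 (adjusted p = 1.58e-45). Slc16a3, the lactate exporter MCT4, had 74.8, 79.3 and 62.9 CPM in the D-KO libraries and 19.9, 21.04 and 22.4 CPM in E1-KO and rose by 1.78 ± 0.081. Bnip3, a mitophagy gene induced by low oxygen, had 80.6, 76.3 and 78.3 CPM in the D-KO libraries and 19.3, 21.97 and 20.7 CPM in E1-KO and rose by 1.92 ± 0.074. All 3 separated the genotypes. Tpi1 rose by 1.23 ± 0.04, Pdk1, which holds pyruvate out of the mitochondrion, by 1.08 ± 0.059 and Egln3, an oxygen sensor and hypoxia target, by 1.15 ± 0.18. The 2 glucose transporter genes went apart: Slc2a1 (GLUT1) rose by 0.87 ± 0.032 and Slc2a3 (GLUT3) fell by 0.50 ± 0.026. The hypoxia response core ACGTG is in 16 of 32 promoters of this list, in 19.6% of all promoters and in 25.03% of those of tested genes. Over all 3102 tested genes with these letters, those of this list included, 28.2% rose, against 25.8% of 7630 without them. In the 12-library fit 13 rose and 1 fell, and Gapdh lost its call (adjusted p = 0.626). Gapdh has many processed pseudogenes, and its counts are uncertain.

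Of 20 cholesterol genes, 11 rose and 2 fell (median 0.27), led by Idi1, which had 54.8, 50.1 and 54.4 CPM in the D-KO libraries and 25.1, 22.5 and 29.2 CPM in E1-KO and rose by 1.06 ± 0.083. Sqle and Hmgcs1 rose by 0.61 ± 0.053 and 0.47 ± 0.046, and Pmvk fell by 0.88 ± 0.12. Of 27 cell cycle and replication genes, 20 rose and 6 fell (median 0.22), mostly by small amounts: Ccne1 rose by 0.58 ± 0.041 and Mcm6 by 0.50 ± 0.034. The inhibitor genes Cdkn1b and Cdkn2a were among those that fell, by 0.64 ± 0.081 and 1.68 ± 0.25. Another inhibitor gene, Cdkn1c, counted with the imprinted genes below, rose by 1.97. With all 12 libraries fitted, 5 of the 27 cell cycle genes rose and 2 fell, and 7 of the 20 cholesterol genes rose and 1 fell. Of 19 targets of p53, 10 fell and 5 rose (median -0.19), with the proapoptotic Pmaip1 rising by 0.65 ± 0.076, Trp53inp1 falling by 0.50 ± 0.038, Btg2, an antiproliferative gene, going from 36.9 to 16.4 CPM (-1.17 ± 0.098), and Cdkn1a falling by 0.53 ± 0.098; Sesn2 is also in the stress list. Of 13 cohesin and CTCF genes, 8 rose and 1 fell (median 0.16), with Smc3 rising by 0.59 ± 0.037, Smc1a by 0.58 ± 0.046, Rad21 by 0.35 ± 0.033 and Ctcf by 0.19 ± 0.041, and Stag1 falling by 0.29 ± 0.052; in the 12-library fit 1 of 13 rose, and Cdkn1a, Ctcf, Smc1a, Rad21 and Stag1 lost their calls (adjusted p = 0.104, 0.276, 0.0569, 0.0872 and 0.293).

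**Figure D5:**
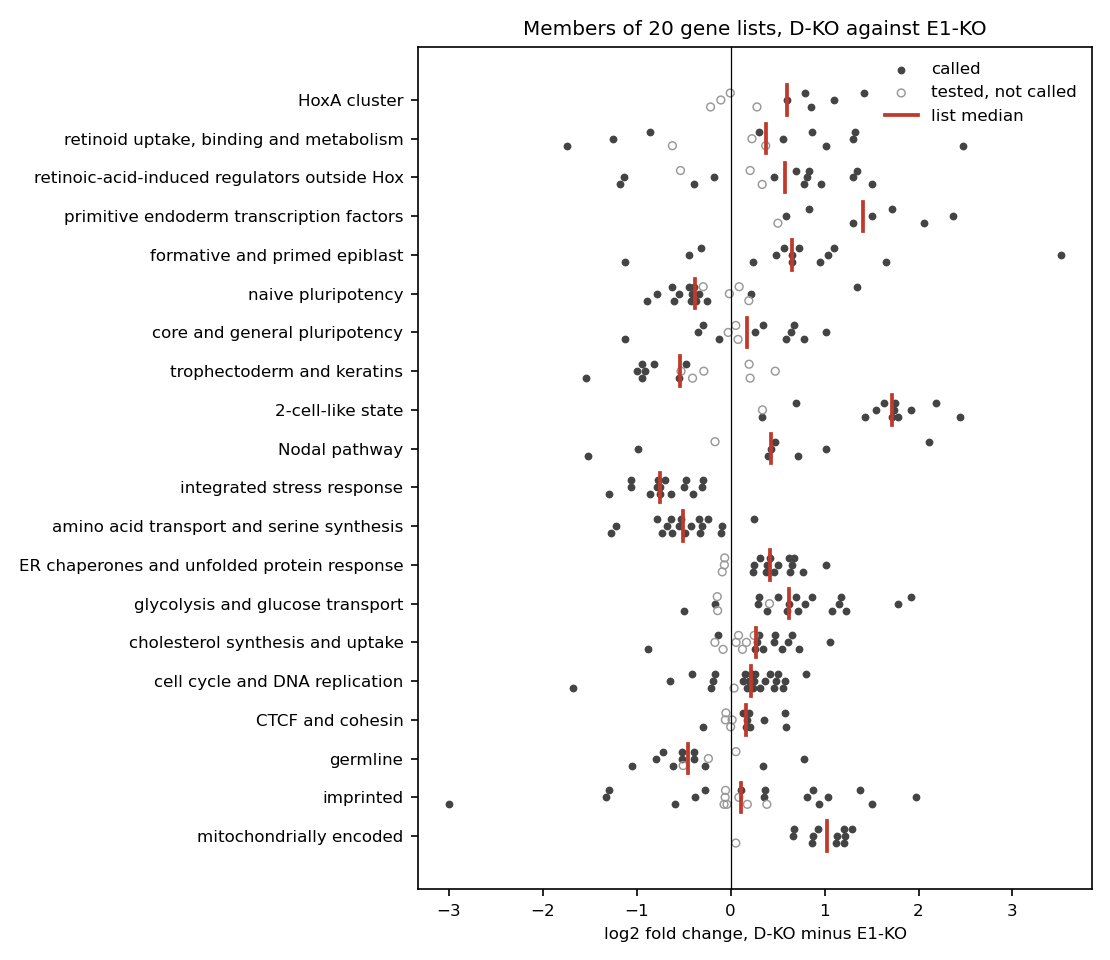
Each point is 1 tested gene of the list named at the left, placed by its log2 fold change in D-KO against E1-KO, filled where called; the red bar is the list median. Among the lists shown the medians run from -0.75 for the integrated stress response to 1.72 for the 2-cell-like state, and lists share some genes.

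Of 12 mitochondrially encoded transcripts, 11 rose and 0 fell (median 1.03), in step with the share of reads given above. Of these, mt-Cytb had 4471, 4351 and 4686 CPM in the D-KO libraries and 1756, 1890.1 and 1871 CPM in E1-KO and rose by 1.29 ± 0.028, and mt-Co1 rose by 0.87 ± 0.025. The low counts of mt-Co2, mt-Co3 and mt-Atp6 are uncertain, since near-identical nuclear copies exist. Nuclear genes of oxidative phosphorylation went both ways, with 10 up and 9 down of 29 (median -0.03): Ndufa2 fell by 0.90 ± 0.098 and Atp5c1 rose by 0.33 ± 0.043. Ribosomal protein genes were as divided, 19 up and 21 down of 54, with Rps20 falling by 0.56 ± 0.032 and Rps25 rising by 0.49 ± 0.031; these genes have many processed pseudogenes, and their counts are uncertain. Fitted over all 12 libraries, 7 of 12 mitochondrial genes rose, and Ndufa2, Rps20 and Rps25 lost their calls (adjusted p = 0.0925, 0.0748 and 0.066). With mitochondrial genes left out of the library sizes, 7998 genes were called. With GC and length trends removed the mitochondrial median was 0.74.

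Of 23 imprinted genes, which are expressed from one parental copy, 10 rose and 6 fell (median 0.11), and 2 neighbours under a shared control region on chromosome 7 went in opposite directions. H19, expressed from the maternal copy, had 2.33, 3.77 and 2.95 CPM in the D-KO libraries and 23.3, 24.5 and 24.8 CPM in E1-KO and fell by 3.00 ± 0.16 (adjusted p = 1.95e-26). Igf2, expressed from the paternal copy, had 14.8, 17.6 and 14.7 CPM in the D-KO libraries and 5.93, 5.70 and 4.86 CPM in E1-KO and rose by 1.51 ± 0.16. Neither overlapped between genotypes, and the E2-KO means, 3.16 CPM for H19 and 16.3 CPM for Igf2, were next to those of D-KO. Cdkn1c, a cell cycle inhibitor also on chromosome 7, had 53.5, 50.1 and 50.2 CPM in the D-KO libraries and 12.998, 13.3 and 12.96 CPM in E1-KO and rose by 1.97 ± 0.092. Peg10 rose by 0.82 ± 0.033 and Mest by 1.03 ± 0.055. The genotype of the parental copies was not measured.

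By size of change, the rule for named genes took 12 rises and 12 falls among called genes with separated libraries and an average log2 CPM of at least 1. Csmd3, a gene for a large transmembrane protein (chr15:47580637-48792063, minus strand), had 388, 348 and 363 counts in D-KO and 0 in each E1-KO and WT library. Against the floor of 3 counts per group it was at least 381-fold higher in D-KO. E2-KO had 177, 216 and 210 counts, so counts were found in D-KO and E2-KO libraries and in none of the E1-KO or WT libraries. The next were Grm6 (3.29 ± 0.43), Csn3 (3.28 ± 0.42), Cubn, Aoc3 (3.05 ± 0.31), Mgat4d (3.01 ± 0.33) and Enpp3, an ectonucleotide phosphatase gene with 30.5, 31.6 and 29.8 CPM in the D-KO libraries and 4.21, 4.11 and 4.76 CPM in E1-KO (2.81 ± 0.14). Crmp1, Gcm1, Cd200 and Crabp2 were also among the rises, at 2.48 to 2.74. Among the falls, H19 came first, followed by Platr15 (-2.86 ± 0.30) and Trim66 (-2.83 ± 0.27). Bach2, a transcriptional repressor gene on chromosome 4, had 4.56, 3.56 and 3.84 CPM in the D-KO libraries and 17.6, 19.4 and 19.03 CPM in E1-KO and fell by 2.23 ± 0.16, and its antisense Bach2os by 2.42 ± 0.41; reads of the pair cannot be told apart without the strand setting. Efhc2, on the X chromosome, had 6.48, 6.72 and 8.76 CPM in the D-KO libraries and 34.3, 33.7 and 38.5 CPM in E1-KO and fell by 2.27 ± 0.12, with an E2-KO mean of 6.84 CPM and a WT mean of 0.744 CPM. Acot2, Loxl4, Slc13a5, Hspb2, Mvb12b and Trpm1 fell by 2.17 to 2.49.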

How the data were processed

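The authors aligned the RNA-seq reads and deposited raw read counts per gene symbol, 1 column per library, with HISAT2 2.1.0, HTSeq 0.9.1 and DESeq2 1.18.1 and the mm10 build named in the submitters' processing notes. Annotation, strand setting and library type were not stated in the sources used here. The 5 HTSeq summary lines were left out: reads outside any gene numbered 1.12 to 1.20 per counted read.

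Counts of the 6 libraries were filtered with filterByExpr, TMM-scaled and tested with edgeR 4.0.16 (R 4.3.3; robust quasi-likelihood test, Benjamini-Hochberg adjustment over all 15843 genes, called at 0.05). Standard errors come from the log2 fold change and its F statistic. The code was tested on simulated data. Genes were named by rule: every HoxA and HoxB member, then 12 rises and 12 falls of largest size with separated libraries and an average log2 CPM of at least 1, without predicted loci, and up to 4 members per list by adjusted p; others are named for their role and were chosen after their values were seen. Some genes that the rule or lists take are counted but not reported here by name. Members and lists were chosen with earlier results of these data known. Gene positions, GC content and length are from GENCODE M21 and cover 97.3% of tested genes. Promoters are from RefSeq. Alternatives were other scalings, DESeq2 1.42.0, limma 3.58.1 (voom), other filters, other sets of libraries, a replicate block, single libraries left out, and GC and length trends removed.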

Additional observations from a re-analysis of the deposited data

How the results depend on the processing

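With all 12 libraries in the fit, 2674 genes were called, 1414 of them higher and 1260 lower, and 857 by at least 1 on the log2 scale; the WT libraries vary more and enter the shared spread. Leaving out 1 library at a time gave 7140 to 7586 called genes. DESeq2 called 6112, limma-voom 7879 and a fit on library totals 8191, with 2969 higher and 5222 lower. With the replicate number as a block 7928 genes were called; libraries of the same number did not deviate together (correlations of deviations -0.0126, -0.015 and -0.0164), so the numbers were not treated as pairs. Of the genes named, 55 lost their call with all 12 libraries. With 1 library left out in turn, the named genes that lost their call in at least 1 fit were, with their highest adjusted p, Ciita (0.217), Gata4 (0.183), H2-K1 (0.128), Herpud1 (0.207), Hoxa2 (0.215), Hoxa9 (0.147), Hoxc13 (0.137), Meis1 (0.073), Mmp2 (0.204), Nkx6-2 (0.262), Otx2 (0.0881), Rarg (0.272), Slc7a11 (0.158), Sox7 (0.0575), Stat3 (0.055), Sycp3 (0.11) and Tcl1 (0.263). Among the called genes named, Rarg changed sign (-0.0108 with library totals). Uncalled genes near 0 also changed sign. Hoxa3 had 0.001 with DESeq2's size factors, 0.0038 with DESeq2, 0.0016 with limma-voom, 0.0588 with GC and length trends removed and 0.0613 with the block as well, and -0.0716 to 0.1005 with 1 library left out. Fgf4 had 0.0058 with trends removed, 0.0059 with the block as well, and -0.0523 to 0.0371 with 1 library left out. Cdx2 ran from -0.1571 to 0.4954 with 1 library left out. Klf2 had -0.0054 with library totals. With trends removed, without and with the block, Hyou1 had 0.0391 and 0.0391, and Sdf2l1 0.0011 and 5e-04. Depth limits most HoxB, HoxC and HoxD genes, which had too few counts to be tested.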

Other observations

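Of 14 tested germline genes, 9 fell and 2 rose (median -0.45). Tex19.1, which restrains transposons, had 22.8, 25.3 and 19.8 CPM in the D-KO libraries and 45.8, 48.2 and 46.1 CPM in E1-KO and fell by 1.05 ± 0.087, and the RNA helicase gene Ddx4 fell by 0.79 ± 0.11; the risers were Stra8 and Sycp3 (0.34 ± 0.13). Of 11 antigen presentation genes, 6 fell and 2 rose (median -0.55), with H2-Eb1, a class II chain, at 13.5, 16.6 and 13.5 CPM in the D-KO libraries and 26.4, 30.1 and 26.02 CPM in E1-KO (-0.92 ± 0.11). Ciita, the class II transactivator, and Psmb9, an immunoproteasome subunit, fell by 1.33 ± 0.49 and 1.13 ± 0.33, and H2-K1, a class I chain, rose by 0.20 ± 0.072. In the 12-library fit 3 germline genes fell and 1 rose, and 2 antigen presentation genes fell and 0 rose; Sycp3, Ciita and H2-K1 lost their calls (adjusted p = 0.377, 0.16 and 0.501). Polycomb genes were divided, 6 up and 7 down of 19, with Kdm2b, which recruits Polycomb to CpG islands, rising by 0.67 ± 0.039, Ezh2, the H3K27 methyltransferase, by 0.43 ± 0.048 and Cbx7 falling by 0.45 ± 0.043; 2 rose and 2 fell in the 12-library fit, and Ezh2 lost its call (adjusted p = 0.0535). Replication-dependent histone genes, whose transcripts lack a poly(A) tail, were mostly too low to test, and of 8 tested 3 rose and 2 fell: Hist1h1c had 8.002, 10.3 and 9.35 CPM in the D-KO libraries and 3.25, 2.06 and 2.23 CPM in E1-KO and rose by 1.87 ± 0.22.

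The E2-KO and WT libraries did not enter the test, and their means give the place of each change among the genotypes. Of 526 genes that rose by at least 1, the E2-KO mean lay between D-KO and E1-KO at 449, below both at 60 and above both at 17; the WT mean lay between at 243, above both at 217 and below both at 66. Of 643 genes that fell by at least 1, the E2-KO mean lay between at 543, below both at 36 and above both at 64. On the CPM scale the E2-KO mean was nearer E1-KO at 406 of the 526 rises and nearer D-KO at 120. Among the 643 falls it was nearer E1-KO at 352 and nearer D-KO at 291. The genes above whose E2-KO mean was close to that of D-KO, such as H19 and Igf2, do not stand for all of these. Since the genes were chosen for lying apart in D-KO and E1-KO, a place between the 2 is a description only. For the integrated stress response list E2-KO was above both at 14 of 15 genes, and for the amino acid list at 13 of 18. WT was below both at 13 of the 15 stress genes.

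By chromosome, the median log2 difference of tested genes ran from -0.07 on chromosome 19 to 0.08 on chromosome X, and the share called from 45.9% on chromosome X to 55.3% on chromosome 18. The mitochondrial genome, with 20 tested genes, had a median of 1.13.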
